A study of Homo sapiens with 11 samples.

Results

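The genes examined here encode the CRL4 and SCF ubiquitin ligase pathway that controls replication licensing: CUL4A, DDB1, DTL, PHIP, SKP2, CDT1, CDKN1A and KMT5A, which are 8 loci. A locus was the gene interval in hg19 plus 10 kb on each side, and a region belonged to it when at least 1 bp lay in that window. In all, 128 of the 407030 regions in the 8 deposited lists met this rule. The rule names the genes and uses no value of the lists, but it was set with earlier results of these data known.

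The lists used here map where the cullin CUL4A, 2 substrate receptors and 2 histone marks sit on chromatin relative to replication origins. The study also mapped FLAG-tagged RepID by ChIP-Seq in U2OS cells, which is not among these lists. U2OS, an osteosarcoma line, gave ChIP-Seq peaks for CUL4A, CDT2, H3K4me3 and H3K9me3 and origins from short nascent DNA strands. The U2OS origin sample is titled wild type, whereas the titles of the U2OS ChIP-Seq samples name no genotype. HCT116, a colon carcinoma line, gave SKP2 ChIP-Seq peaks in wild-type cells (WT) and in cells lacking RepID (RepID KO), and origins in RepID KO cells. RepID was removed with CRISPR and the edited cells were cloned, so a RepID KO value describes an edited clone. All cultures were untreated and unsynchronized. The CDT2 sample is labelled U2OS, whereas the series description names a U2OS line that overexpresses FLAG-tagged full-length RepID, and the methods name wild-type U2OS cells. The title of its input names that FLAG line but the input's other labels give HCT116, so it is not known here which cells were used. Each condition had 1 sample, so replicate spread is unknown and no test between conditions was possible. HCT116 WT origins were not analysed here, so the origin lists differ in both cell line and RepID status, which cannot be told apart. The depth of the libraries is unknown.

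CUL4A is the scaffold of the CRL4 ligase, DDB1 is its adaptor, and receptors such as CDT2 (encoded by DTL) bring in substrates. RepID (encoded by PHIP) belongs to the same receptor family, and the paper reports that it recruits CUL4 to chromatin. CRL4-CDT2 marks CDT1, p21 (CDKN1A) and the histone H4 lysine 20 methyltransferase SET8 (KMT5A) for destruction on replicating DNA, which prevents the same DNA from being licensed again. SKP2 is the receptor of a different ligase, SCF, and also targets CDT1 and p21. H3K4me3 is found at active promoters, and H3K9me3 is known from heterochromatin.

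All 8 genes had at least 1 listed start with a larger share of G and C than the median promoter, although 1 CUL4A start lay below it. The 4 promoters printed are those whose loci carried the most different peak patterns: DTL with a run of H3K9me3 peaks, CDT1 with coincident CDT2 and SKP2 peaks, PHIP with almost no region, and SKP2 with CUL4A and H3K4me3 at its start. The sequences are the 250 bases before each start from RefSeq, 5′ to 3′ on the gene's own strand. In build GRCh38.p14 they lie at chr1:212035498-212035747 (plus strand) for DTL, chr16:88803539-88803788 (plus) for CDT1, chr6:79078255-79078504 (minus) for PHIP and chr5:36151861-36152110 (plus) for SKP2. Positions elsewhere are in hg19 and were not converted. Capitals mark the GC box GGGCGG and the E2F-type motif TTTGGCG, each searched on both strands.
DTL: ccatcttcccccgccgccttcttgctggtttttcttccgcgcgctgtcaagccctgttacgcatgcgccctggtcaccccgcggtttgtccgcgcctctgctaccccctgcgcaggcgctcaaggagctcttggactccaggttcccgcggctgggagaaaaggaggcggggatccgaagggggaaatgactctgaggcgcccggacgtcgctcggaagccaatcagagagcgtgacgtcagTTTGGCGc
CDT1: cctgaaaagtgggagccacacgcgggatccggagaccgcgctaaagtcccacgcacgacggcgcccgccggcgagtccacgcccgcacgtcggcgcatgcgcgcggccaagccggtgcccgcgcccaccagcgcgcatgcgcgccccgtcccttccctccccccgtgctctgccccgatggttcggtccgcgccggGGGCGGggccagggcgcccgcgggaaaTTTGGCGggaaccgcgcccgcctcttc
PHIP: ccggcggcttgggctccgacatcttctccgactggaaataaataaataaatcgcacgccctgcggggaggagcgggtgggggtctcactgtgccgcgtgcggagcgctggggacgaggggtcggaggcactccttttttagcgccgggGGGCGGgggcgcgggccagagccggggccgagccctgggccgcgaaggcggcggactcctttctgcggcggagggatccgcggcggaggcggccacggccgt
SKP2: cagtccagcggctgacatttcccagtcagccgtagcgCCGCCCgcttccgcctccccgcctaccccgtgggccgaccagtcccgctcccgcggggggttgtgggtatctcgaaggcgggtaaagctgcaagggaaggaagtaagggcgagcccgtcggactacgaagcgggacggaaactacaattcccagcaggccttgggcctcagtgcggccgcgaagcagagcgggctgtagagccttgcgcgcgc
The E2F-type motif was found upstream of DTL and of CDT1 and is present in 1.59% of 35116 RefSeq promoters of this length. The GC box was found at 1 or more starts of every gene but DTL, although some of the CUL4A starts lacked it. It is present in 42.6% of those promoters, which is a share per start and not per gene. Across the 12 starts listed for the 8 genes, the upstream bases held 52.4 to 80.8% G and C and 16 to 44 CpG dinucleotides, against medians of 58% and 11 over all promoters. The motif matches are a description of these letters and do not show that a factor binds there.

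Every locus held an H3K4me3 peak and an HCT116 RepID KO origin, whereas SKP2 peaks were present at few. Of windows of the same lengths laid end to end over chromosomes 1 to 22 and X, 26.9% held an H3K4me3 peak and 50.7% a RepID KO origin. These windows include gene-poor stretches, while each locus contains a gene, so a larger share at the loci was not read as particular to this pathway. U2OS origins were present at 7 loci (65.5% of windows), CUL4A peaks at 6 (41.3%), H3K9me3 peaks at 6 (51.5%) and CDT2 peaks at 5 (28.5%). SKP2 peaks were present at 3 loci in HCT116 WT cells (16.3% of windows) and at 1 locus in RepID KO cells (18%). The number of regions per locus ran from 3 at PHIP, the longest window, to 29 at CUL4A.

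**Figure D1:**
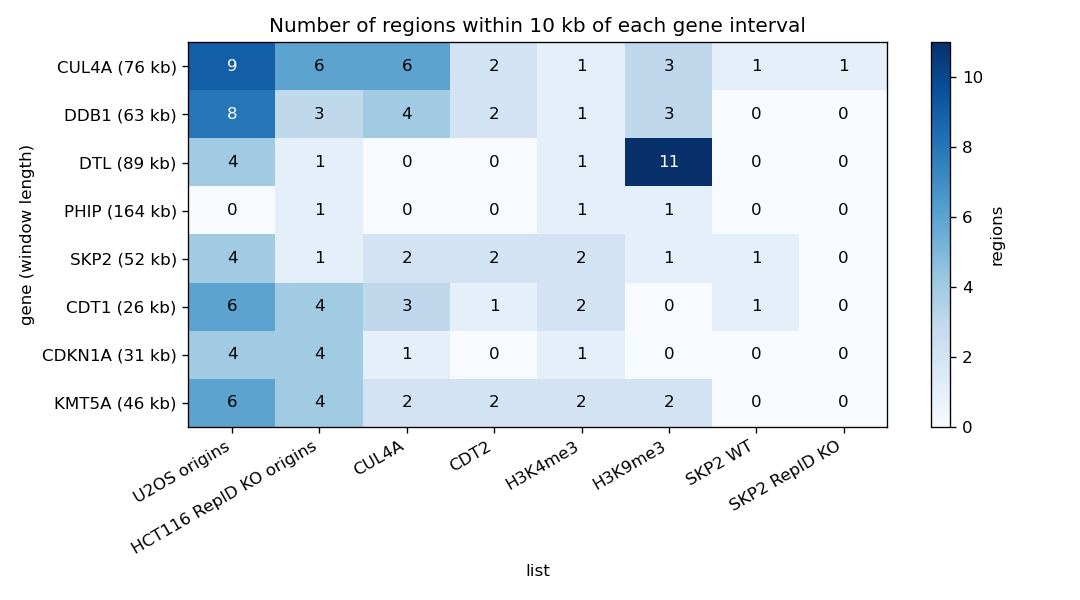
Number of regions of each list (columns) within 10 kb of each gene interval (rows, with the window length in kb), with 1 sample per list. The CUL4A row has regions of all 8 lists, the DTL row holds 11 H3K9me3 peaks, and the PHIP row has 3 regions in all.

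The lists differ in the width of their regions, so the covered length is given beside the counts. H3K4me3 covered 9.32% of the 547 kb in the 8 windows and 1.87% of the chromosomes, U2OS origins 23.9 and 13.7%, RepID KO origins 15.2 and 9.45%, and CUL4A peaks 8.85 and 5.18%. CDT2 peaks covered 1.03% of the windows and 0.596% of the chromosomes. H3K9me3 peaks covered 2.54 and 0.878%, and 1.31% of the windows without DTL. SKP2 peaks covered 0.206% of the windows in WT cells and 0.168% in RepID KO cells, close to their 0.194 and 0.223% of the chromosomes. The H3K4me3 peaks at the loci were also wide, with a median of 4878 bp against 1878 bp over the list.

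**Figure D2:**
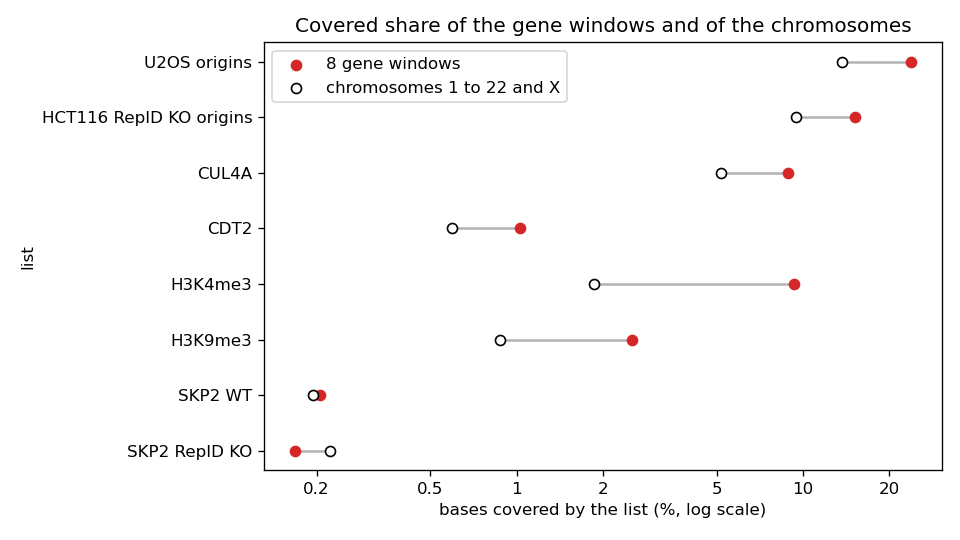
Share of bases covered by each list (percent, logarithmic axis) in the 8 gene windows (red points) and over chromosomes 1 to 22 and X (open points), with 1 sample per list. H3K4me3 has the widest gap, 9.32 against 1.87%, and SKP2 in RepID KO cells is the list with the red point on the left.

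At the gene starts, taken as the start edge of each interval plus 1 kb on each side, all 8 genes had a RepID KO origin, where 14% of all windows of 2 kb held one. H3K4me3 peaks were at 7 starts (3.43% of windows), U2OS origins at 5 (20.5%) and CUL4A peaks at 4, those of DDB1, SKP2, CDT1 and CDKN1A (8.32%). No start had a CDT2 peak (2.34% of windows), an H3K9me3 peak (4.62%), or an SKP2 peak in WT (0.995%) or RepID KO cells (1.13%). These windows were not chosen at gene starts, so a larger share at the 8 starts was not read as particular to this pathway. The start without H3K4me3 was that of DDB1, whose interval in the rule is 9.3 kb longer than its RefSeq gene. With the DDB1 start placed by the RefSeq length, all 8 starts had H3K4me3 and 6 had a U2OS origin. A second gene starts on the opposite strand within 1 kb of CUL4A (PCID2), DDB1 (TKFC), DTL (INTS7) and SKP2 (LMBRD2), so regions at these 4 starts cannot be assigned to either gene.

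**Figure D3:**
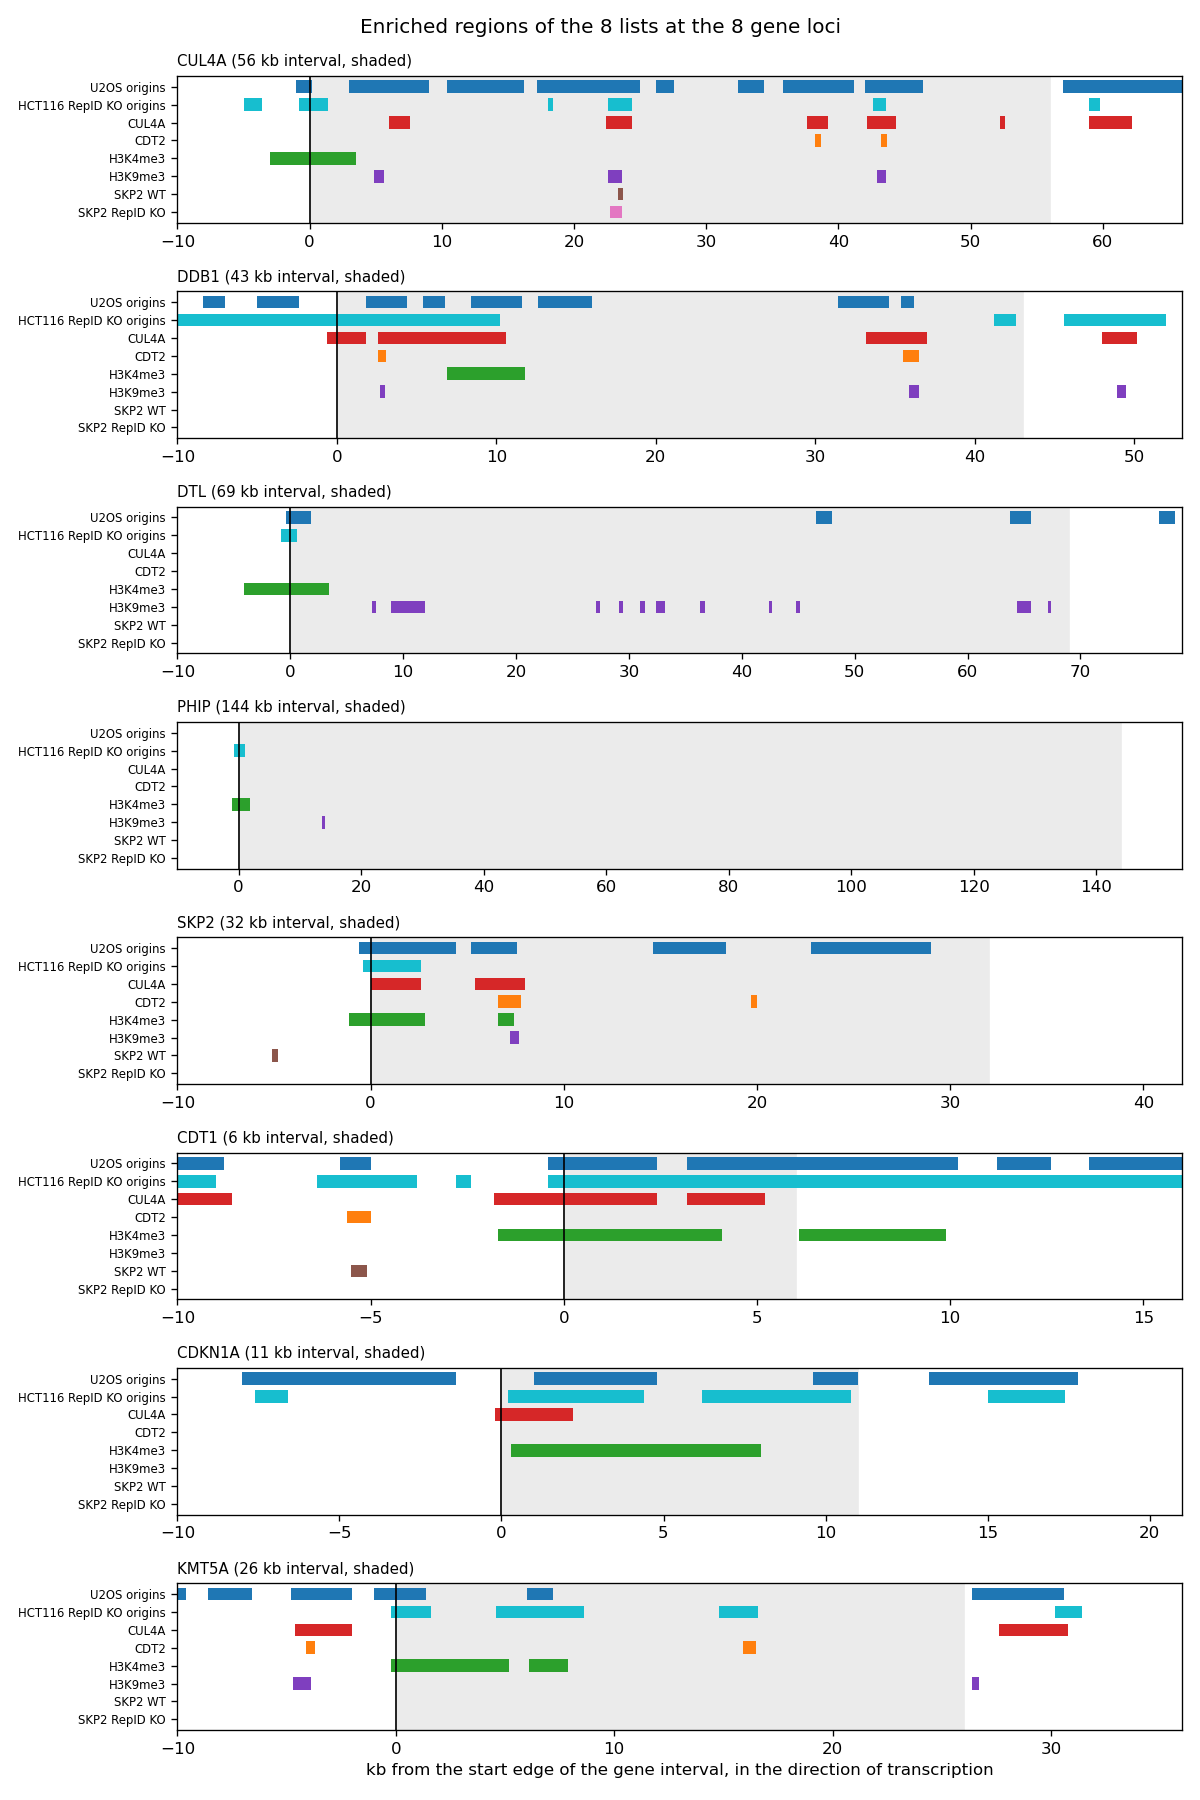
Positions of all regions at the 8 loci, in kb from the start edge of the gene interval in the direction of transcription, with the interval shaded, the start edge as a black line and 1 row per list. Regions of 5 or 6 lists stack at CUL4A, DDB1 and SKP2, whereas the body of DTL holds 11 H3K9me3 peaks and that of PHIP is nearly empty.

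CUL4A, the scaffold gene, was the locus with regions of all 8 lists. Its U2OS origins were 9 in number and covered 56.6% of the window. At chr13:113886273-113886559, 23.3 to 23.6 kb inside the interval, 287 bp were shared by 6 lists: U2OS and RepID KO origins, CUL4A, H3K9me3, and SKP2 in both WT and RepID KO cells. In the authors' scores, the U2OS origin there scored 598 and ranked 2950 in its list, and the CUL4A peak scored 247, above 90.2% of its list. The SKP2 peak scored 913 in WT cells, above 80.3% of its list, and 1350 in RepID KO cells, above 93.2% of its list. Scores of different lists are on scales that are not stated and were not compared. The H3K9me3 peak at this position had a fold enrichment of 3.1, below the list median of 4.0. Its score of 34, which restates its −log10 q of 3.4, was above 69.4% of its list. This stretch was the single position at the 8 loci with SKP2 in both genotypes and the single one with 6 lists, whereas the chromosomes held 2351 stretches of at least 6 lists. A second position of the gene, 43.2 to 43.6 kb from the start edge, carried a CDT2 peak that scored 38.48, a CUL4A peak, H3K9me3 and both origins. At the start itself the origins were present in both lines with an H3K4me3 peak of 6481 bp, and the nearest CUL4A peak lay 6 kb inside.

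DDB1, the adaptor gene, had 4 CUL4A peaks, of which the widest spanned 8000 bp and scored 290, the highest CUL4A score at the 8 loci. It overlapped the H3K4me3 peak of 4878 bp, whose fold enrichment over the control, as the peak caller gave it, was 17.2, the highest H3K4me3 value at the loci. Within this CUL4A peak, 280 bp at chr11:61106988-61107267 were shared by U2OS and RepID KO origins, CUL4A, CDT2 and H3K9me3. This stretch lies 2.7 to 3.0 kb from the interval edge, which is upstream of DDB1, on the side of TKFC, when the start is placed by the RefSeq length. The CDT2 peak there scored 36.88 and the other CDT2 peak of the locus, 35.5 kb from the start edge, scored 36.41. Both DDB1 positions with CDT2 also had CUL4A, a U2OS origin and H3K9me3. The share of the whole CDT2 list that meets H3K9me3 was not measured here. The paper reports that CDT2 sites colocalize with H3K9me3 chromatin, so this was not read as particular to the locus. A RepID KO origin of 22200 bp that scored 2523 covered the start edge, while no SKP2 peak lay within 36.5 kb of the window in either genotype.

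DTL, which encodes CDT2 itself, held 11 H3K9me3 peaks where each other locus held at most 3. Like PHIP, it held no CUL4A, CDT2 or SKP2 region. Windows of its 89 kb length lacked a CUL4A peak in 45% of cases and a CDT2 peak in 57.4%. These windows include gene-poor stretches, and how often a window with a gene lacks such a peak was not measured. The nearest CUL4A peak was 92.2 kb beyond the window and the nearest CDT2 peak 17 kb. Its start carried an H3K4me3 peak of 7550 bp with a fold enrichment of 12.4, a U2OS origin that scored 58 and a RepID KO origin that scored 119.

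The DTL window held 11 H3K9me3 peaks, all inside the gene interval, out of 21 at the 8 loci. From the start edge onward their fold enrichments were 21.5, 15.9, 30.2, 55.6, 12.4, 22.2, 39.3, 15.4, 57.1, 61.7 and 18.5. The 10 peaks at the other loci had fold enrichments of 2.7 to 5.6, so the values did not overlap. Fold enrichments of at least 10 were found for 273 peaks, or 0.474% of the list, and all 11 DTL peaks were among them. The strongest peak of the whole list lay in DTL at chr1:212273441-212274554, with a −log10 q of 398.4, which its score of 3983 restates on another scale. The DTL peaks also took the 4 highest fold enrichments of the list and 7 of the 20 highest. When the peaks of at least 10-fold were chained at distances below 50 kb, DTL gave a chain of 11, the next largest chain had 2 peaks, and 260 of 262 chains were single peaks.

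The median width of these peaks was 399 bp, against 321 bp over the list, and 8 of the 11 were narrower than 450 bp. The window held no CUL4A, CDT2 or SKP2 region, so none of these peaks could meet one. None met the H3K4me3 peak at the start, 1 met a U2OS origin, and 0 met a RepID KO origin. Over the whole list, 35.5% of H3K9me3 peaks met a CUL4A peak, 46.7% a U2OS origin and 5.96% an H3K4me3 peak. Among its peaks with at least 10-fold enrichment, 86.1% met a CUL4A peak and 72.9% a U2OS origin. For CUL4A, the 11 DTL peaks share 1 absence at 1 locus and are not 11 separate cases. The list shares for CDT2, SKP2 and RepID KO origins were not measured. Whether the DTL peaks fall on exons was not tested, they come from 1 library, and the control behind their fold enrichments is uncertain (IgG per the methods, inputs among the labels).

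**Figure D4:**
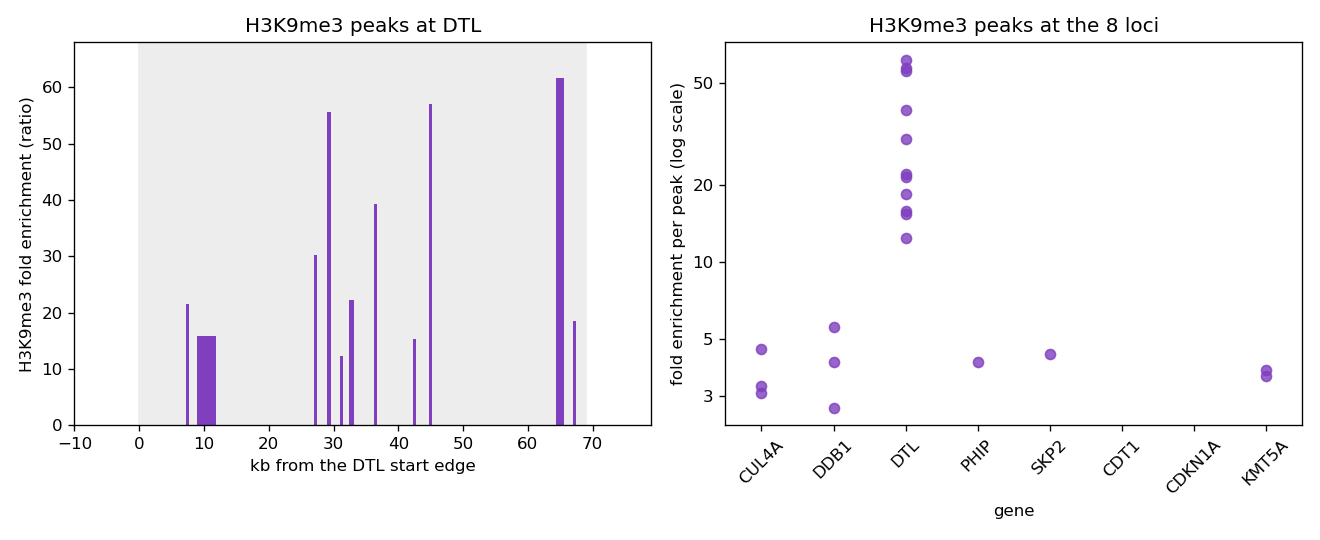
Left, fold enrichment over the control (ratio) of the 11 H3K9me3 peaks at DTL by distance in kb from the start edge, with the gene interval shaded and bars as wide as the peak where visible. Right, fold enrichment of every H3K9me3 peak at the 8 loci (logarithmic axis, 1 point per peak, 1 library), with DTL at 12.4 to 61.7 and the other loci at 2.7 to 5.6.

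PHIP, which encodes RepID, had 3 regions in a window of 164 kb. A RepID KO origin at chr6:79787001-79788800 scored 290 and lay at the start within an H3K4me3 peak of 3031 bp with a fold enrichment of 5.7, the lowest H3K4me3 value at a start. The remaining region was an H3K9me3 peak of 474 bp, 13.6 kb inside, with a fold enrichment of 4.1. No U2OS origin was present, which was the case for 16.9% of windows of this length. CUL4A was absent from 32.1% of such windows and CDT2 from 42.4%. The nearest CDT2 peak lay 1.31 kb beyond the window, the nearest U2OS origin 13 kb and the nearest CUL4A peak 56.2 kb. The origin at the PHIP start was therefore called in RepID KO HCT116 cells and not in U2OS cells.

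SKP2, the gene of the SCF receptor, had regions of 7 lists, in an interval 32 kb long where its RefSeq gene has 41420 bp. Its start was met by a U2OS origin that scored 223, a RepID KO origin that scored 155, a CUL4A peak that scored 97 and an H3K4me3 peak with a fold enrichment of 16.2. A second position, 230 bp at chr5:36159187-36159416 and 7.2 kb inside, was shared by 5 lists: U2OS origins, CUL4A, CDT2, H3K4me3 and H3K9me3. The CDT2 peak there scored 49.97, above 84.7% of its list, whereas the H3K4me3 peak had a fold enrichment of 3.2, the lowest at the 8 loci. The other CDT2 peak of the locus, 19.7 kb inside, scored 20.9 and met no other region. The peak shared at 7.2 kb was the single H3K9me3 peak of the 21 that met an H3K4me3 peak. An SKP2 peak of WT cells lay 5.1 to 4.8 kb upstream, on the side of the divergent gene LMBRD2, with a score of 362 above 46.4% of its list, and it met no other region. In RepID KO cells the nearest SKP2 peak was 146 kb beyond the window.

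CDT1, the licensing factor degraded through both ligases, had the highest covered shares of origins, with 60% of its window in U2OS origins and 78.5% in RepID KO origins. A RepID KO origin of 49000 bp, scored 23021 and ranked 85 in its list, began 0.4 kb before the start edge and ran past the end of the window. A position 5.5 to 5.1 kb upstream, at chr16:88864495-88864899, carried an SKP2 peak of WT cells that scored 1833, above 92.3% of its list. It lay inside a CDT2 peak that scored 94.6, above 94.5% of its list and the highest CDT2 score at the 8 loci, and inside origins of both lines. This was the single position at the 8 loci where CDT2 and SKP2 peaks met. The CDT2 sample is labelled U2OS and the SKP2 sample HCT116. The share of either whole list that meets the other was not measured here, and the paper reports high colocalization of SKP2 sites with CDT2 sites. No CUL4A peak met this CDT1 position, and CUL4A peaks lay on both sides of it, one ending 8.6 kb upstream of the start edge and another beginning 1.8 kb upstream and covering the start. In RepID KO cells the nearest SKP2 peak was 73 kb beyond the window. Windows of the 26 kb length of this locus held an SKP2 peak in 9.58% of cases in WT and 10.7% in RepID KO cells, and with 1 sample of each genotype the difference between them was not tested.

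**Figure D5:**
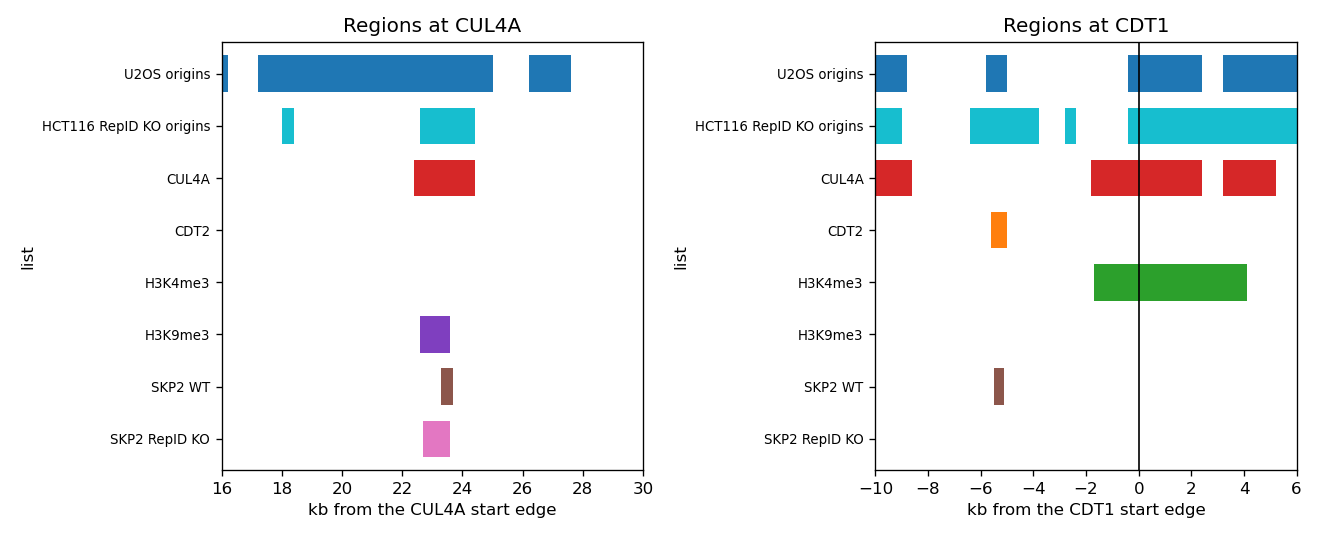
Regions of the 8 lists (rows) around the SKP2 peaks at CUL4A (left) and upstream of CDT1 (right), in kb from the start edge of the gene interval, with bars as called regions and the black line as the start edge. At CUL4A the peaks of both genotypes overlap 23.3 to 23.6 kb inside the gene, and at CDT1 the WT peak 5.5 to 5.1 kb upstream lies within a CDT2 peak and has no RepID KO counterpart.

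CDKN1A, the gene of the cell cycle inhibitor p21, had regions of 4 lists and no CDT2, H3K9me3 or SKP2 peak within 10 kb. The nearest CDT2 peak lay 1.5 kb beyond the window. Its H3K4me3 peak of 7676 bp, the widest at the loci, had a fold enrichment of 10.8. The stretch shared by both origin lists, CUL4A and H3K4me3 lay at chr6:36645001-36646200, 1.0 to 2.2 kb inside the gene. The CUL4A peak there scored 34, above 17.3% of its list.

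KMT5A, the gene of SET8, had CDT2 peaks 4.1 to 3.7 kb upstream and 15.9 to 16.5 kb inside, with scores of 30.12 and 20.96. The upstream CDT2 peak met CUL4A, a U2OS origin and H3K9me3 in 207 bp at chr12:123863942-123864148. The inner CDT2 peak met a RepID KO origin and no CUL4A peak. Its start had origins of both lines and an H3K4me3 peak of 5360 bp with a fold enrichment of 8.9, and the nearest CUL4A peak lay 2 kb upstream. The RepID KO origin 4.6 to 8.6 kb inside scored 683, above 85.4% of its list. Of windows of the 46 kb length of this locus, 28.3% held a CDT2 peak.

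Over the 8 loci, 15 of 18 CUL4A peaks met a U2OS origin, a share of 83.3% (Wilson 95% interval 60.8 to 94.2%), and the share over the whole list was 69.3%. Of 41 U2OS origins, 19 met a CUL4A peak, 46.3% (32.1 to 61.3%) against 29.9% of the list. CUL4A peaks met an H3K4me3 peak in 6 of 18 cases, 33.3% (16.3 to 56.3%) against 16.2%, and a CDT2 peak also in 6 cases, against 26%. H3K4me3 peaks met a U2OS origin in 10 of 11 cases, 90.9% (62.3 to 98.4%) against 59.6%, the exception being the peak at PHIP, and met a CUL4A peak in 5 cases, 45.5% (21.3 to 72%) against 36.6%. Of the H3K9me3 peaks, 1 of 21 met H3K4me3, 4.76% (0.846 to 22.7%) against 5.96%. U2OS origins met a RepID KO origin in 24 of 41 cases, 58.5% (43.4 to 72.2%) against 42.3%, and RepID KO origins met a U2OS origin in 18 of 24 cases, 75% (55.1 to 88%) against 59.7%. The intervals cover counting error only, and neighbouring regions of a locus are not independent. The list share lay below the interval for U2OS origins meeting CUL4A, U2OS origins meeting RepID KO origins and H3K4me3 meeting U2OS origins, and below it by little for CUL4A meeting H3K4me3. For the other 5 pairs it lay inside the interval. With the gene interval alone, U2OS origins met RepID KO origins in 51.9% (34 to 69.3%), which includes the list share. H3K4me3 then met U2OS origins in 90% (59.6 to 98.2%), with the lower end at the list share. With 50 kb on each side CUL4A peaks met H3K4me3 in 24.4% (13.8 to 39.3%), which includes the list share too. With the stronger 50% of each list, H3K4me3 met U2OS origins in 62.5% (30.6 to 86.3%) and CUL4A met H3K4me3 in 25% (8.89 to 53.2%). U2OS origins then met RepID KO origins in 45.8% (27.9 to 64.9%) and CUL4A in 50% (31.4 to 68.6%). The list shares among the stronger 50% were not measured, so these values have no matching list share. Wider regions meet others more easily at 1 bp. Median widths at the loci and over the list were 4878 and 1878 bp for H3K4me3 and 2800 and 2400 bp for U2OS origins. They were 2500 and 2000 bp for CUL4A, and 1800 and 2000 bp for RepID KO origins. Whether width accounts for the differences was not tested.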

How the data were processed

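The 11 samples comprised 8 with a list of enriched regions and 3 inputs, for which no list was analysed here. The authors called regions per sample, and the lists were used as deposited, in hg19 per the submitters' processing notes. Origins and CUL4A regions were called with SICER (window 200 bp, gap 600 bp, FDR 0.01 and 1e-05). CDT2 and SKP2 peaks were called with MACS2 per the methods, and SICER is the stated caller of the histone marks although these deposited lists have the broad peak form of MACS2. Aligner settings are not given in the sources used here. Every deposited list carries a score of the authors whose scale is not stated, so scores were ranked within a list only. In the histone lists the score follows the −log10 q value, as with 3983 beside 398.4, and is not a separate measure. The deposited histone lists also give the fold enrichment over the control as a ratio and −log10 p and −log10 q values, and which control was used is uncertain, since the methods name IgG and the labels list inputs. The 3 further columns of the deposited SKP2 lists are not explained and were not used.

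From these lists, regions sharing at least 1 bp with a window were counted, covered bases were summed, and overlaps of at least 1 bp were taken as meeting, with Wilson 95% intervals. The background was chromosomes 1 to 22 and X, cut end to end into windows of each locus length. No test was run, since each condition had 1 sample, and depth is unknown. Member genes and lists were chosen with earlier results of these data known. For each locus, the text names regions by score, by distance to the start and by the number of lists that meet. The other CRL4, SCF, licensing and neddylation genes set for counting could not be placed, since no hg19 annotation was used here, and exons were not assigned for the same reason. Promoter sequences and neighbouring genes came from RefSeq tables (GRCh38.p14). Alternatives were the interval alone, a flank of 50 kb, the stronger 50% of each list, an overlap of 50%, a gap of 1 kb and −log10 q of at least 2. Starts with 2 kb on each side, the DDB1 start by RefSeq length and leaving out DTL were chosen later, after seeing the data. The chains of H3K9me3 peaks and the limit of 10-fold were also chosen after the values were seen. Overlap counts were tested on simulated data, where 0 of 4000 answers differed from a direct count. Python 3.11.15, NumPy 2.4.6 and matplotlib 3.10.9 were used.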

Additional observations from a re-analysis of the deposited data

How the results depend on the processing

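No paired analysis was possible because each condition had 1 sample and no group had replicates. With the gene interval alone, SKP2 WT regions were 1 (at 1 locus), RepID KO origins 15, covering 11%, and U2OS origins 27. With 50 kb on each side, CDT2 regions were 19 at 8 loci, SKP2 RepID KO regions 5 at 3, SKP2 WT regions 6 at 5, CUL4A 41, H3K4me3 22, covering 7.07%, H3K9me3 37, RepID KO origins 57, covering 18.9%, and U2OS origins 84. With these flanks every locus had a CDT2 peak, while 3 loci still had no SKP2 peak in WT cells and 5 had none in RepID KO cells. The share of all windows of these longer lengths was not measured, so the counts were not read as particular to the loci. Of windows of 164 kb, 57.6% held a CDT2 peak, 40.7% an SKP2 peak of WT cells and 43.1% one of RepID KO cells. With the stronger 50% of each list, RepID KO origins were 13 and U2OS origins 24, U2OS origins covered 19.4% and CUL4A 6.73%, H3K9me3 peaks met H3K4me3 in 0%, and RepID KO origins met U2OS origins in 53.8%. When at least 50% of a region had to be covered, CUL4A peaks met CDT2 in 0%, H3K9me3 met H3K4me3 in 0%, H3K4me3 met U2OS origins in 54.5%, RepID KO origins met U2OS origins in 54.2% and U2OS origins met CUL4A in 29.3%. CDT2 peaks are much narrower than CUL4A peaks, with list medians of 551 and 2000 bp. Without DTL, H3K9me3 peaks were 10 and covered 1.31%. A gap of 1 kb, a −log10 q of at least 2, starts of 2 kb and the other DDB1 start moved 0 results by more than 1.5 times for a count or beyond the Wilson interval for a share. Starts of 2 kb raised the U2OS origin starts from 5 to 7, adding DDB1 and CDKN1A. Sequencing depth is unknown, and an absent region is one that was not called.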

Other observations

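At least 4 lists met over 2.47% of the windows and 0.702% of the chromosomes, and at least 5 lists over 0.339 and 0.13%. At least 6 lists met over 0.0525% of the windows, which was the single stretch in CUL4A, and over 0.0289% of the chromosomes. At least 7 lists met over 0% of the windows and 0.0048% of the chromosomes. The windows of CUL4A, DDB1 and SKP2 held the stretches of 5 or 6 lists, and CDT1, CDKN1A and KMT5A had at most 4, DTL 3 and PHIP 2.

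Some absences rest on the edge of the window. An H3K9me3 peak lay 0.745 kb beyond the CDT1 window and another 1.49 kb beyond that of CDKN1A, and a CDT2 peak lay 1.31 kb beyond that of PHIP. Outside CUL4A, the SKP2 peak of RepID KO cells nearest to a window lay 24.4 kb from that of DTL.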
